A study of Bos taurus with 2 samples.

Results

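CRYAB, SERPINH1 and RCAN1 are 3 of the 19043 annotated protein coding genes whose fragments were counted in bovine blastocysts and degeneratives. They were found by identifier, ENSBTAG00000000434 for CRYAB (entry name CRYAB_BOVIN), ENSBTAG00000001027 for SERPINH1 (SERPH_BOVIN) and ENSBTAG00000020035 for RCAN1 (RCAN1_BOVIN), and each had 1 row in both tables. The 3 genes were chosen by their higher normalized values in degeneratives, in these same libraries. Their difference between the libraries is therefore described here and was not tested.

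The proteins act at different places in the cell. CRYAB, alpha B crystallin, is a small heat shock protein that binds unfolding proteins without using ATP and keeps them from aggregating, and it is best known from the eye lens and from muscle. SERPINH1, also called HSP47, resides in the endoplasmic reticulum and binds newly made collagen while its triple helix forms. RCAN1 binds and inhibits calcineurin, the calcium-dependent phosphatase that activates NFAT transcription factors, and NFAT in turn can raise transcription from an internal promoter of the RCAN1 gene.

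The embryos came from in vitro fertilization (IVF), in which oocytes are matured and fertilized outside the animal, and no drug treatment or genetic change is given for either group. All embryos had compacted into a morula. On Day 8, those with a visible inner cell mass and a blastocoele, the fluid-filled cavity, made up the blastocysts, and those that had not passed from morula to blastocyst made up the degeneratives. Each group was 1 pool of 20 embryos and 1 library, made from linearly amplified polyadenylated RNA, so that no value has an error between replicates and embryos within a pool cannot be told apart. In pooled whole embryos, fewer cells that express a gene and less of its RNA per cell cannot be told apart either.

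The tables held 10687008 counts for blastocysts and 6514505 for degeneratives, a 1.64-fold difference in fragments within the exons counted. This is not a difference in sequencing depth, since the numbers of sequenced and of uniquely mapped fragments in the study were nearly equal. In degeneratives a larger share of the uniquely mapped fragments lay outside annotated genes. Of those within genes, a larger share lay in introns. CPM is therefore relative to the exonic counts of a library and not to all of its fragments. Levels are given as CPM, the count divided by the library total and multiplied by the same constant in both, in which the floor of 3 counts was 0.281 in blastocysts and 0.461 in degeneratives. Intervals below are 95% intervals for counting error only, and amplified fragments are not independent molecules. Apart from 3 fibroblast markers, defining markers of the embryo's lineages and of other cell types could not be read. The tables give Ensembl identifiers, and the RefSeq table at hand paired 0 of them with a symbol. For the same reason the wider lists of heat shock proteins, collagen chains and calcineurin genes were not analysed here. Names of other genes come from the study's list of differing genes, which names 39 identifiers, all of them in the tables.

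Transcripts of all 3 genes were detected in both kinds of embryos and made up a larger share of the counts in degeneratives. Together they took 713 counts in blastocysts, or 66.7 CPM, and 3694 counts in degeneratives, or 567 CPM. Each gene had more raw counts in the degenerative library although that library had the smaller total. The direction of this share thus did not rest on which scaling of the libraries was used. Counts are shares of a library, and the amount of RNA per embryo or per cell was not measured.

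CRYAB, the small heat shock protein, was counted 179 times in blastocysts and 1165 times in degeneratives. Its level was 16.7 CPM in blastocysts (Wilson interval 14.5 to 19.4) and 179 CPM in degeneratives (169 to 189). The intervals were far apart, and the raw counts alone differed by a factor of 6.51. In the authors' normalized values, which are counts quantile normalized between the libraries and rounded, CRYAB had 158 and 1498, a ratio of 9.48. On the scale of log2(normalized value + 1) the difference was 3.24 with a counting error (SE) of 0.12, the largest of the 3 genes.

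SERPINH1, the collagen chaperone, was counted 297 times in blastocysts and 1461 times in degeneratives, the highest of the 3 genes in both libraries. Its CPM was 27.8 (Wilson interval 24.8 to 31.1) in blastocysts and 224 (213 to 236) in degeneratives. The raw counts differed by a factor of 4.92. Normalized values were 258 and 1890, a ratio of 7.33, and the log2 difference was 2.87 with a counting error of 0.09.

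RCAN1, the calcineurin regulator, was counted 237 times in blastocysts and 1068 times in degeneratives. Its CPM was 22.2 (Wilson interval 19.5 to 25.2) in blastocysts and 164 (154 to 174) in degeneratives. RCAN1 thus lay between the chaperones in blastocysts and below both of them in degeneratives, with a factor of 4.51 between its raw counts. Normalized values were 208 and 1361, a ratio of 6.54, and the log2 difference was 2.70 with a counting error of 0.10. Only exons present in every isoform were counted, so that transcripts from the different promoters of RCAN1 were not separated.

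**Figure D1:**
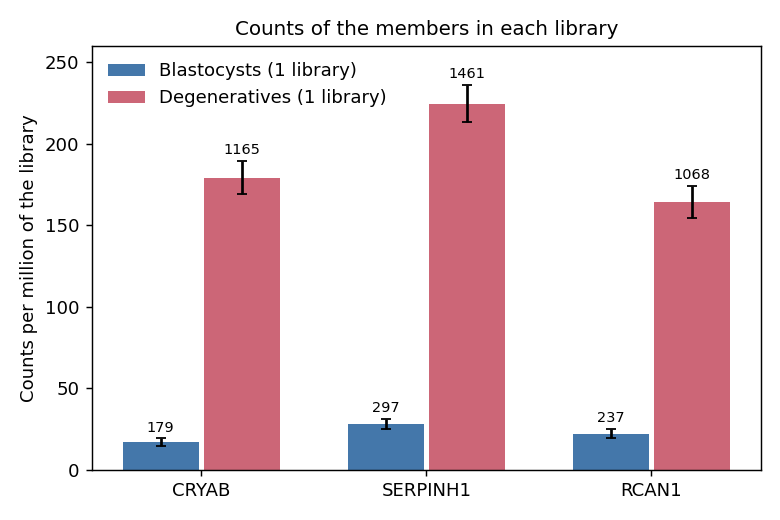
Bars show the level in CPM of CRYAB, SERPINH1 and RCAN1 in the blastocyst and the degenerative library (1 library each), error bars are 95% Wilson intervals for counting error, and the number over each bar is the raw count. The bars for degeneratives stand at 179, 224 and 164 CPM, those for blastocysts at 16.7, 27.8 and 22.2 CPM.

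The ranks of the genes, which no scaling of a library changes, moved in the same direction. Ranks are by raw count among the 19043 genes of a library, from the highest count down, and are not corrected for the length of the exons counted. CRYAB stood at rank 5614 in blastocysts and 1112 in degeneratives, a gain of 4502 places, and 70.5% and 94.2% of genes had fewer counts. SERPINH1 moved from rank 4543 to 868, with 76.1% and 95.4% of genes below it. RCAN1 moved from rank 5006 to 1239, with 73.7% and 93.5% of genes below it. All 3 genes thus had between 70.5% and 76.1% of the genes below them in blastocysts and between 93.5% and 95.4% in degeneratives. Since exon lengths are not in the tables, these ranks do not order the genes by transcript abundance.

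Most genes with at least 10 raw counts over both libraries differed by less than 2-fold between the libraries. Of these 13171 genes, 1253, or 9.51%, were at least 2-fold higher in degeneratives and 1208, or 9.17%, at least 2-fold lower. At least 4-fold higher were 376 genes, or 2.85%, and at least 4-fold lower were 175, or 1.33%. CRYAB, SERPINH1 and RCAN1 were all at least 4-fold higher, and nothing is read from that, since they were chosen on this contrast. Quantile normalization gives both libraries the same distribution of values, which favours a near-even split at 2-fold. That split moved with the scaling, to 1895 genes 2-fold higher and 699 lower with edgeR's TMM factors, and to 2714 and 315 with the library totals. By the size of the log2 difference, CRYAB was at place 73, SERPINH1 at 113 and RCAN1 at 132 of the 13171 genes.

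Many genes with larger differences had few counts. Among the 5142 genes with a mean normalized value of at least 200 over the libraries, CRYAB was at place 13, SERPINH1 at 20 and RCAN1 at 25. The median log2 difference of these 5142 genes was -0.01 with an SD of 0.57 between genes. A median this small was largely set by the quantile normalization. Of the 5142 genes, 52, or 1.01%, were at least 4-fold higher in degeneratives against 2 that were at least 4-fold lower. With means of 828 for CRYAB and 784.5 for RCAN1, these 2 genes lay in the band from 200 to 1000, where 42 of 3449 genes were at least 4-fold higher. SERPINH1, with a mean of 1074, lay in the band of 1000 or more, where 10 of 1693 genes were. These means include the degenerative values on which the 3 genes were chosen. In blastocysts alone CRYAB was at 158 and SERPINH1 at 258, so that CRYAB passed 200 and SERPINH1 passed 1000 only through degeneratives. The places and shares therefore describe the genes and are no evidence that they are rare.

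**Figure D2:**
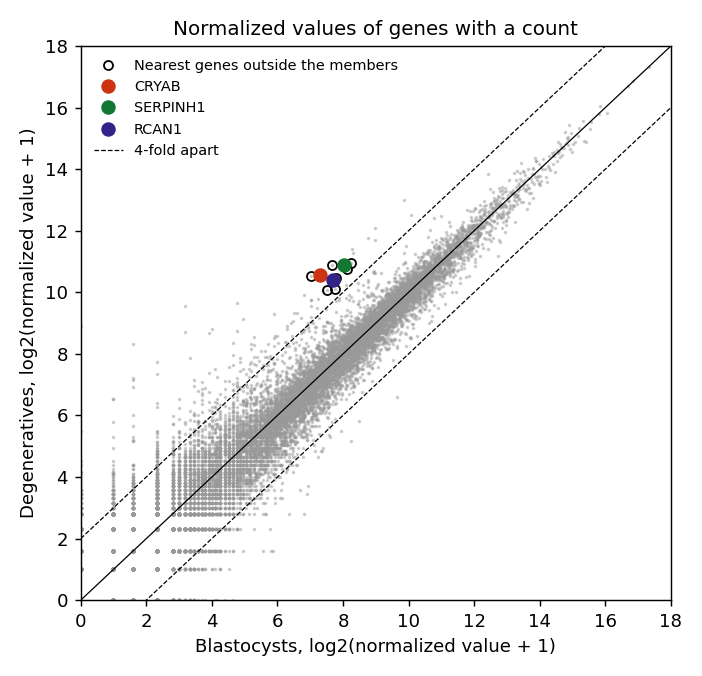
Each point is a gene with a count in either library, placed by log2(normalized value + 1) in blastocysts (x axis) and degeneratives (y axis), with the line of equality and dashed lines 4-fold from it. CRYAB, SERPINH1 and RCAN1 lie above the upper dashed line at log2 differences of 3.24, 2.87 and 2.70, close to each other, and open circles mark the genes nearest to them.

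Genes that shared the level of these 3 in 1 library mostly had a like level in the other, unlike the 3 genes. In blastocysts they spanned normalized values from 158 to 258, a window that also held 1086 other genes. These had a median of 192 in degeneratives, with quartiles of 148 and 246, whereas the 3 genes had between 1361 and 1890. Of the 1086 genes, 2 reached 1361 or more. They were TPA_BOVIN, tissue-type plasminogen activator, at 219 and 1398, and MXRA8_BOVIN, at 200 and 1905. Seen from degeneratives, 370 other genes had normalized values from 1361 to 1890, and their median in blastocysts was 1520, with quartiles of 1271 and 1813. Of these 370 genes, 2 were at 258 or less in blastocysts, TPA_BOVIN and Q2KJC7_BOVIN, the latter at 128 and 1486. The windows were set by the 3 genes' own values after these were seen, and they describe where the genes lay. Because the 3 genes were chosen for higher values in degeneratives, their contrast with genes of like level follows from that choice.

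**Figure D3:**
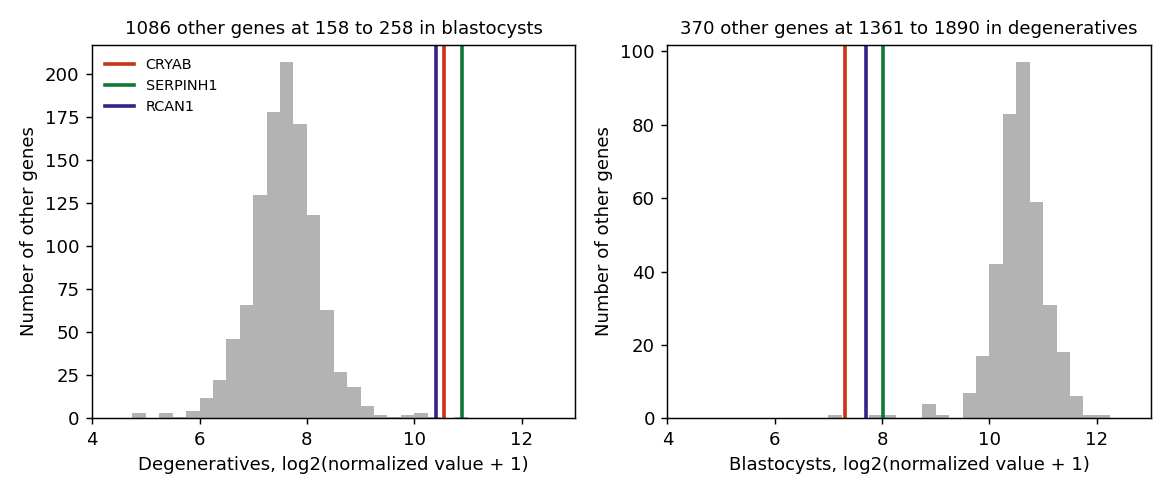
Histograms of the normalized value, on a log2(value + 1) axis, that other genes had in degeneratives when they were at 158 to 258 in blastocysts (left, 1086 genes), and in blastocysts when they were at 1361 to 1890 in degeneratives (right, 370 genes). Vertical lines mark CRYAB, SERPINH1 and RCAN1, which lie to the right of nearly all genes on the left and to the left of nearly all genes on the right.

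The 3 genes were also compared with each other within each library, where no scaling is needed. The ratio of CRYAB counts to SERPINH1 counts was 0.603 (95% interval 0.501 to 0.726) in blastocysts and 0.797 (0.738 to 0.861) in degeneratives. The difference of their log2 ratios, from raw counts, was 0.40 with an interval from 0.11 to 0.69. CRYAB thus differed between the libraries by a factor 1.32 times that of SERPINH1, more than counting error alone covers. Against RCAN1, CRYAB had a count ratio of 0.755 (0.622 to 0.917) in blastocysts and 1.09 (1.004 to 1.19) in degeneratives. CRYAB was thus the lower of this pair in blastocysts and the higher in degeneratives by count, with a difference of log2 ratios of 0.53 (0.23 to 0.83). For SERPINH1 against RCAN1, count ratios were 1.25 (1.06 to 1.49) and 1.37 (1.26 to 1.48). Their log2 ratios differed by 0.13 with an interval from -0.14 to 0.40, so that a difference between their changes was not detectable at this depth. These differences between the genes were no larger than the SD of 0.57 that the log2 difference had among all genes with a mean of at least 200, and how much they vary between pools of the same kind was not measured.

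**Figure D4:**
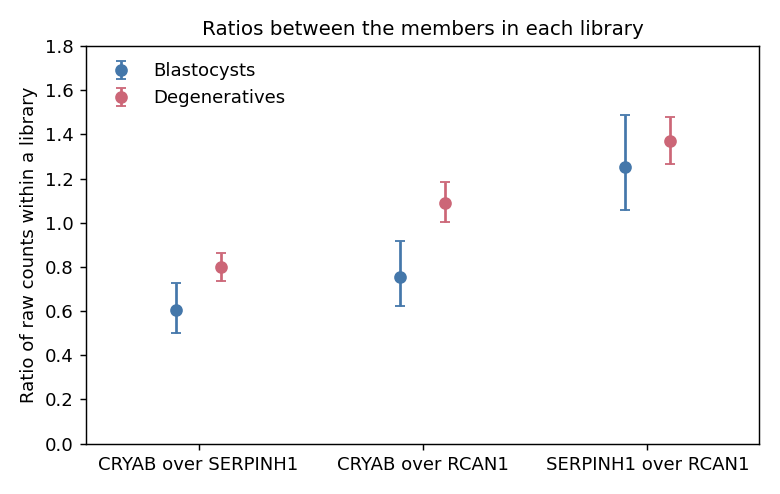
Ratios of raw counts between pairs of the 3 genes within the blastocyst and the degenerative library, with 95% intervals for counting error. The intervals of the libraries are apart for CRYAB over SERPINH1 (0.603 and 0.797) and for CRYAB over RCAN1 (0.755 and 1.09), and overlap for SERPINH1 over RCAN1 (1.25 and 1.37).

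The genes with the most similar pair of values were searched by the distance between log2(normalized value + 1) in the 2 libraries, a measure of likeness over 2 points only, for the 3 nearest genes each. RCAN1 and TPA_BOVIN were the closest pair, at a distance of 0.08, with TPA_BOVIN at 250 and 1096 raw counts. A7MB83_BOVIN (0.32) and Q17QL4_BOVIN (0.41) followed for RCAN1. For SERPINH1 the nearest were RARR2_BOVIN, the secreted protein chemerin, at a distance of 0.17, with normalized values of 276 and 1714, then ANKR1_BOVIN, a cardiac ankyrin repeat protein, at 0.23, with 302 and 1964, and MXRA8_BOVIN at 0.37. For CRYAB they were Q2KJC7_BOVIN at 0.30, RCAN1 itself at 0.42 and TPA_BOVIN at 0.48. CRYAB thus had no neighbour as close as RCAN1 or SERPINH1 had. All of these genes are on the study's list of differing genes, as are CRYAB, SERPINH1 and RCAN1. Since the search sought values like those of genes chosen for their difference, nothing is read from that.

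Of 8 fibroblast markers listed, 3 could be read, and only because the study's list of differing genes names them, so that their direction is no independent evidence and the other 5 were not analysed here. VIME_BOVIN, the intermediate filament protein vimentin, had normalized values of 926 and 8208. LUM_BOVIN, lumican, had 506 and 3306, and PGS2_BOVIN, decorin, had 95 and 640, both of them proteoglycans that bind collagen. The log2 differences were 3.15, 2.71 and 2.74, in the range of those of CRYAB, SERPINH1 and RCAN1. Whether a difference in cell types between the pools had a part in the values of the 3 genes was not tested.

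The size of the differences depended on how the libraries were scaled. CRYAB had a log2 difference between 2.74 and 3.41, SERPINH1 between 2.34 and 3.01 and RCAN1 between 2.21 and 2.88. In each case the lower end came from scaling to the study's uniquely mapped fragments and the upper end from the library totals of the tables. These denominators differ in that the former includes fragments in introns and between genes. Both the share outside annotated genes and the intronic share within genes were larger in degeneratives. The median of all 13171 genes moved along, from -0.34 to 0.32 between these scalings. Relative to that median, CRYAB was higher in degeneratives by 3.08 to 3.26, SERPINH1 by 2.68 to 2.89 and RCAN1 by 2.55 to 2.73. The factors of TMM, median-of-ratios, library totals and uniquely mapped fragments each multiply a whole library, so that the order of the 3 genes and their distance from the median were bound to be kept among these 4 scalings, apart from small effects of the pseudocount. All 3 genes were over 4-fold higher in each of the 6 scalings.

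**Figure D5:**
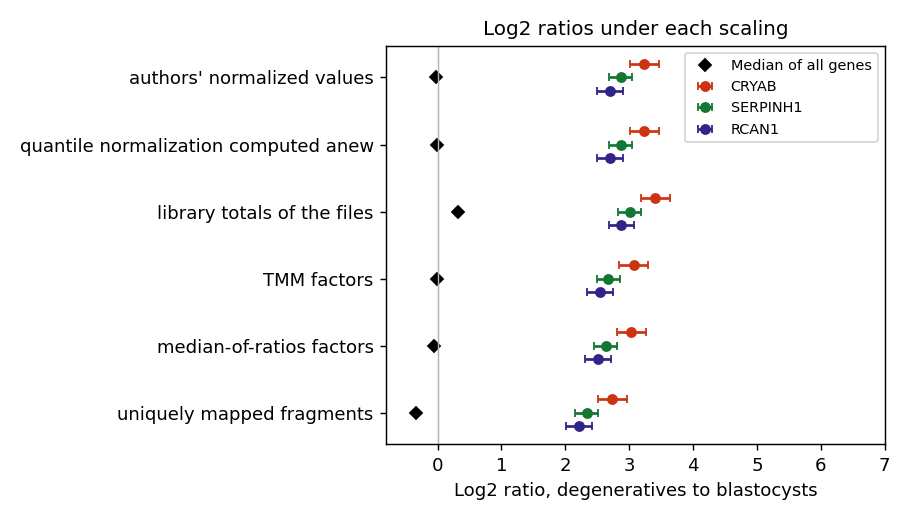
Log2 ratios of degeneratives to blastocysts for CRYAB, SERPINH1 and RCAN1 under 6 scalings, with 95% intervals for counting error, and the median of all 13171 genes as diamonds. The 3 genes lie between 2.21 and 3.41, while the median lies between -0.34 and 0.32.

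The position of genes in the genome can bear on what is counted, and whether it did here was not tested. In the RefSeq annotation of the ARS-UCD2.0 assembly, used here for names and order only, the protein coding genes next to CRYAB are CFAP68 and HSPB2, another small heat shock protein. SERPINH1 lies between GDPD5 and MAP6, and RCAN1 between CLIC6 and KCNE1. Sequencing was not stranded, and exons shared between genes were removed by the authors before counting, on the Btau4 assembly. Reads running from 1 of these neighbours into exons of the 3 genes could not be told apart from their own, and counts of the neighbours were not analysed here.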

How the data were processed

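The authors amplified RNA from 20 pooled blastocysts and 20 pooled degeneratives (Day 8), sequenced both, aligned the reads by TopHat 1.0.13 (per the labels) to Btau4 with repeats masked, and counted fragments lying entirely within constitutive, non-overlapping exons. The deposited tables hold these raw counts and, as a score, the authors' normalized values, quantile normalized with limma and rounded. Amplification favours 3' ends, and repeat masking can lower counts of repeated sequence.

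Log2 ratios used the authors' normalized values with a pseudocount of 1. Counting errors are the square root of summed reciprocal raw counts, on the log2 scale, and CPM intervals are Wilson intervals. With 1 library per group, and genes chosen on this contrast, no test was run and no p-value is given. The study's test for unreplicated counts was not repeated. Alternatives were quantile normalization computed anew (limma 3.58.1), library totals, TMM (edgeR 4.0.16), median-of-ratios factors (DESeq2 1.42.0), the study's uniquely mapped fragments, pseudocounts of 0.1 and 5, and minimums of 1 and 100 counts in place of 10. Recovery of known changes was checked on simulated counts for TMM and median-of-ratios factors, and not for the authors' normalized values. R 4.3.3, Python 3.11.15, numpy 2.4.6, pandas 2.3.3, scipy 1.17.1 and matplotlib 3.10.9 were used.

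The genes and lists were chosen with earlier results of these data known. Named genes were these 3, the 3 nearest to each, and genes of 8 pathway lists, which could not be paired with identifiers, nor could 7 marker lists beyond 3 fibroblast markers. CLUS_BOVIN and the genes in the windows were named after their values were seen.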

Additional observations from a re-analysis of the deposited data

How the results depend on the processing

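The log2 ratios of CRYAB, SERPINH1 and RCAN1 kept their direction in all 7 alternatives each. They moved by more than counting error with the study's uniquely mapped fragments, to 2.74 for CRYAB, 2.34 for SERPINH1 and 2.21 for RCAN1. SERPINH1 also did so with TMM factors (2.68) and median-of-ratios factors (2.63). CRYAB (3.08 and 3.03) and RCAN1 (2.55 and 2.51) were lower with these factors too, but within their wider counting intervals. The half-width of that interval was 0.18 for SERPINH1, 0.23 for CRYAB and 0.20 for RCAN1. SERPINH1 was therefore not shown to be more sensitive to scaling. Among themselves the scalings by uniquely mapped fragments, TMM factors and median-of-ratios factors differ only by library size, which shifts all genes together. The main values are quantile normalized, which is not a common shift. The median of all genes was -0.03 there, -0.01 with TMM factors and -0.05 with median-of-ratios factors. SERPINH1 lay above that median by 2.89 in the main values and by 2.69 with either set of factors. The 3 differences between the genes stayed within counting error with the authors' normalized values. Counts of genes past a fold moved by over 1.5 times as follows. With library totals, 2714 genes were 2-fold higher, 315 were 2-fold lower, 892 were 4-fold higher and 47 were 4-fold lower. With TMM factors these were 1895, 699, 603 and 84. With median-of-ratios factors, 787 were 2-fold lower, 568 were 4-fold higher and 90 were 4-fold lower. A pseudocount of 5 gave 168 genes 4-fold higher and 41 lower. Without a filter beyond 1 count, 2468 were 2-fold higher, 2452 were 2-fold lower and 398 were 4-fold lower. With at least 100 counts, which tests fewer genes, the numbers were 379, 350, 121 and 24. The filters change which genes are counted, and a larger pseudocount shrinks the log2 ratios of genes with few counts by construction. With library totals the median of all genes was 0.32. What else moved these numbers was not tested. No replicate could be left out and no paired analysis was possible because each group had 1 library, so that differences between pools of the same kind were not measured.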

Other observations

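Another chaperone on the study's list of differing genes, picked out after its values were seen, is CLUS_BOVIN (ENSBTAG00000005574), clusterin, a secreted protein that binds unfolding proteins outside the cell. It was counted 1293 times in blastocysts and 4287 times in degeneratives, and its normalized values of 1080 and 5794 differed by a factor of 5.36, a log2 difference of 2.42 with a counting error of 0.05. Its rank by raw count moved from 1557 to 228. Clusterin thus had a higher count in blastocysts than CRYAB, SERPINH1 and RCAN1, and a smaller log2 difference than each of them. As it was named for its difference between these libraries, no test was made.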
